A study of Mus musculus with 49 samples.

Results

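The secretory granule and peptide processing genes are 10 genes chosen by name from the 52636 genes of the count table: the granins and granin-related genes Scg2, Chga, Chgb, Vgf, Scg3 and Scg5, and the peptide processing enzymes Pcsk1, Pcsk2, Cpe and Pam. The rule names the genes and has no threshold on a measured value. Neurons store peptide transmitters in dense core granules, whose lumen is packed with granins, acidic proteins that aggregate in the trans-Golgi network and that are themselves cut into peptides. Inside the granule the prohormone convertases cut precursors at basic residues, a carboxypeptidase trims the exposed basic residues, and an amidating enzyme modifies the C-terminus of many peptides. Medium spiny neurons (MSNs), the projection neurons of the striatum, use this pathway for the opioid and tachykinin peptides by which the D1 and D2 types are told apart: Pdyn and Tac1 mark D1-MSNs and Penk marks D2-MSNs.

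The study set 3 ways of isolating RNA of D1- or D2-MSNs from the nucleus accumbens of C57BL/6J mice beside each other, each library coming from 1 mouse. For whole cell-FACS, fresh tissue was digested with papain and cells carrying a cytoplasmic fluorophore driven by the Drd1 or Drd2 promoter were sorted (8 D1 and 6 D2 libraries, labelled male). For nuclear-FACS, nuclei were sorted from frozen tissue of Drd1-cre or Drd2-cre mice crossed to Thy1-loxPSTOPloxP-EGFP-F (6 D1 and 5 D2 libraries, labelled male). For RiboTag, ribosomes bearing HA-tagged Rpl22 were immunoprecipitated from fresh tissue of Drd1-cre or Drd2-cre mice (6 D1 and 6 D2 libraries labelled male, 5 and 5 labelled female). The mice of the 3 methods thus differed in reporter allele and in fresh or frozen tissue, and method cannot be told apart from these. The labels used here give no age and no treatment. Labelling in each method depended on the Drd1 or Drd2 promoter, directly or through Cre, and these promoters are active not only in MSNs.

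Library totals ran from 3701255 to 68777008 counts. Counts over 1386 olfactory and vomeronasal receptor genes gave an estimate of reads spread evenly over the genome, hereafter background. This background made up 0.0259 to 0.0635% of the counts in RiboTag libraries, 0.585 to 22.1% in nuclear D1, 32.4 to 52.1% in nuclear D2, 13.5 to 52.5% in whole cell D1 and 8.27 to 36.7% in whole cell D2 libraries. The 10 highest genes held 84.9 to 88.3% of a RiboTag library and 60.9 to 66.9% of 3 nuclear D1 libraries. The dopamine receptor genes followed the labels in all 3 methods. In nuclei, mean Drd1 was 11.2 FPKM in D1 and 3.63 in D2 and mean Drd2 was 4.05 and 14.5. The nuclear D2 libraries nevertheless went against the label for Penk, with 24.4 FPKM ± 12.1 (SD, n = 5) beside 119 ± 55.0 (n = 6) in nuclear D1, and their summed level of 6 shared MSN markers was 21.4 to 54.3 FPKM beside 52.0 to 114 FPKM. Of 5 D2 markers, Drd2 and Penk among them, 4 were tested in nuclei, with 1 called higher and 1 lower in D2. Their median log2 fold change, D2 minus D1, was -0.60. Of 5 D1 markers, Drd1 among them, 4 were tested and 1 was called, lower in D2 (median -0.63). In 6 of the 12 RiboTag libraries labelled male, 4 of D1 and 2 of D2, Xist counts exceeded those of 4 Y-linked genes. Called values of members that rest on these libraries are given with and without them, and "male" below means labelled male.

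Coordinates are those of GRCm38. Scg2 (ENSMUSG00000050711, secretogranin II) lies at chr1:79434669-79440120 on the minus strand, Chga (ENSMUSG00000021194, chromogranin A) at chr12:102554969-102565028 on the plus strand, Chgb (ENSMUSG00000027350, chromogranin B) at chr2:132781278-132795079 on the plus strand and Vgf (ENSMUSG00000037428, a neurotrophin-inducible granin-like precursor) at chr5:137026392-137033351 on the plus strand. These 4 are compact genes, whose exons fill 46.1%, 27.4%, 19.9% and 42.7% of the span between first and last base. Scg3 (ENSMUSG00000032181, secretogranin III, a membrane-binding granin) lies at chr9:75643189-75684056 on the minus strand and Scg5 (ENSMUSG00000023236, encoding 7B2, the chaperone of the convertase PC2) at chr2:113776362-113829121 on the minus strand. Of the enzymes, Pcsk1 (ENSMUSG00000021587, prohormone convertase PC1/3) lies at chr13:75089826-75134861 on the plus strand, Pcsk2 (ENSMUSG00000027419, PC2) at chr2:143546156-143816285 on the plus strand, Cpe (ENSMUSG00000037852, carboxypeptidase E) at chr8:64592542-64693054 on the minus strand and Pam (ENSMUSG00000026335, the amidating monooxygenase) at chr1:97795114-98095646 on the minus strand. Exons fill 2.60% of Cpe, 2.93% of Pcsk2, 2.97% of Scg5, 3.96% of Pam, 6.70% of Scg3 and 12.4% of Pcsk1. The count table was made from all reads over a gene body, introns included and without regard to strand, so this share bears on every comparison between nuclear and cytoplasmic RNA. Antisense genes Pcsk2os1 and Pcsk2os2 overlap Pcsk2 and held counts equal to 6.13% and 18.7% of those of Pcsk2, and B230216N24Rik, inside Pam on the same strand, held 8.41%. Reads of these genes and of Pcsk2 or Pam cannot be told apart there.

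Several granule genes are known targets of the cyclic AMP-responsive transcription factor CREB, so the promoters were searched for its binding sequence TGACGTCA and for the shorter TGACG, which the longer one contains, on both strands. RefSeq windows from 250 bases before to 50 after the start (GRCm38.p6) were at hand for 8 of the 10 genes. The longer motif was present in 3 of the 8, beside 1.79% of 32851 promoters, and the shorter one in 7 of the 8, beside 20.8%. A match describes the letters only. The windows of 30 bases below are shown because they hold the match nearest to the start site in each of the 3 genes with the longer motif and in Chga, which holds the shorter one; they are written 5′ to 3′ on the strand of the gene, with the match in capitals.
Scg2: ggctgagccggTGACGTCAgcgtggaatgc
Chgb: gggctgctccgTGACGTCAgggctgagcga
Pcsk1: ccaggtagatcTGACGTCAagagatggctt
Chga: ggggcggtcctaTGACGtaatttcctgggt
The first base of the match lies 68 bases before the RefSeq start in Scg2 (window chr1:79440076-79440105, minus strand), 72 in Chgb (chr2:132781559-132781588, plus strand), 78 in Pcsk1 (chr13:75089768-75089797, plus strand) and 44 in Chga (chr12:102554885-102554914, plus strand). Scg2 and Chgb, which share the longer motif, were also the members with the most RNA per exon length in the RiboTag libraries, whereas Pcsk1, which holds it too, had the least.

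Levels between genes were compared per kilobase of summed exon length. Since introns are part of every count, this measure runs higher for genes whose exons fill little of the span, such as Cpe. In all 4 RiboTag groups the order was Chgb, Scg2, Cpe and Scg5, then Chga and Vgf in either order, then Pcsk2, Scg3, Pam and Pcsk1. In RiboTag D1 male libraries Chgb had 200.5 FPKM per exon length ± 9.28 (SD, n = 6), Scg2 182 ± 18.9, Cpe 109 ± 4.42 and Pcsk1 2.48 ± 0.533. Chgb and Scg2 overlapped in range there, as did Scg5, Chga and Vgf with their neighbours, while every other neighbouring pair was separate. By this measure Chgb and Scg2 led the ribosome-bound fraction with Cpe next, and PC1/3 stood below PC2. In the nuclear libraries the order was another: Cpe led in D1 with 215 ± 33.6 and in D2 with 169 ± 25.6, and Scg2, second in RiboTag, came last in nuclear D2 with 9.59 ± 2.49. By gene span the highest member was Scg2 in nuclear D1 and Chgb in nuclear D2, so the nuclear order depends on the length used. In nuclear D1 each neighbouring pair overlapped in range except Vgf and Pcsk1. In nuclear D2 Scg2 overlapped in range with Vgf, the next gene above it at 9.61 ± 2.18 per exon length. Scg2 led whole cell D1 with 123 ± 52.1 and Cpe led whole cell D2 with 105 ± 7.14, both overlapping the next gene. From here on levels are FPKM over the whole gene span and are compared only within a gene.

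**Figure D1:**
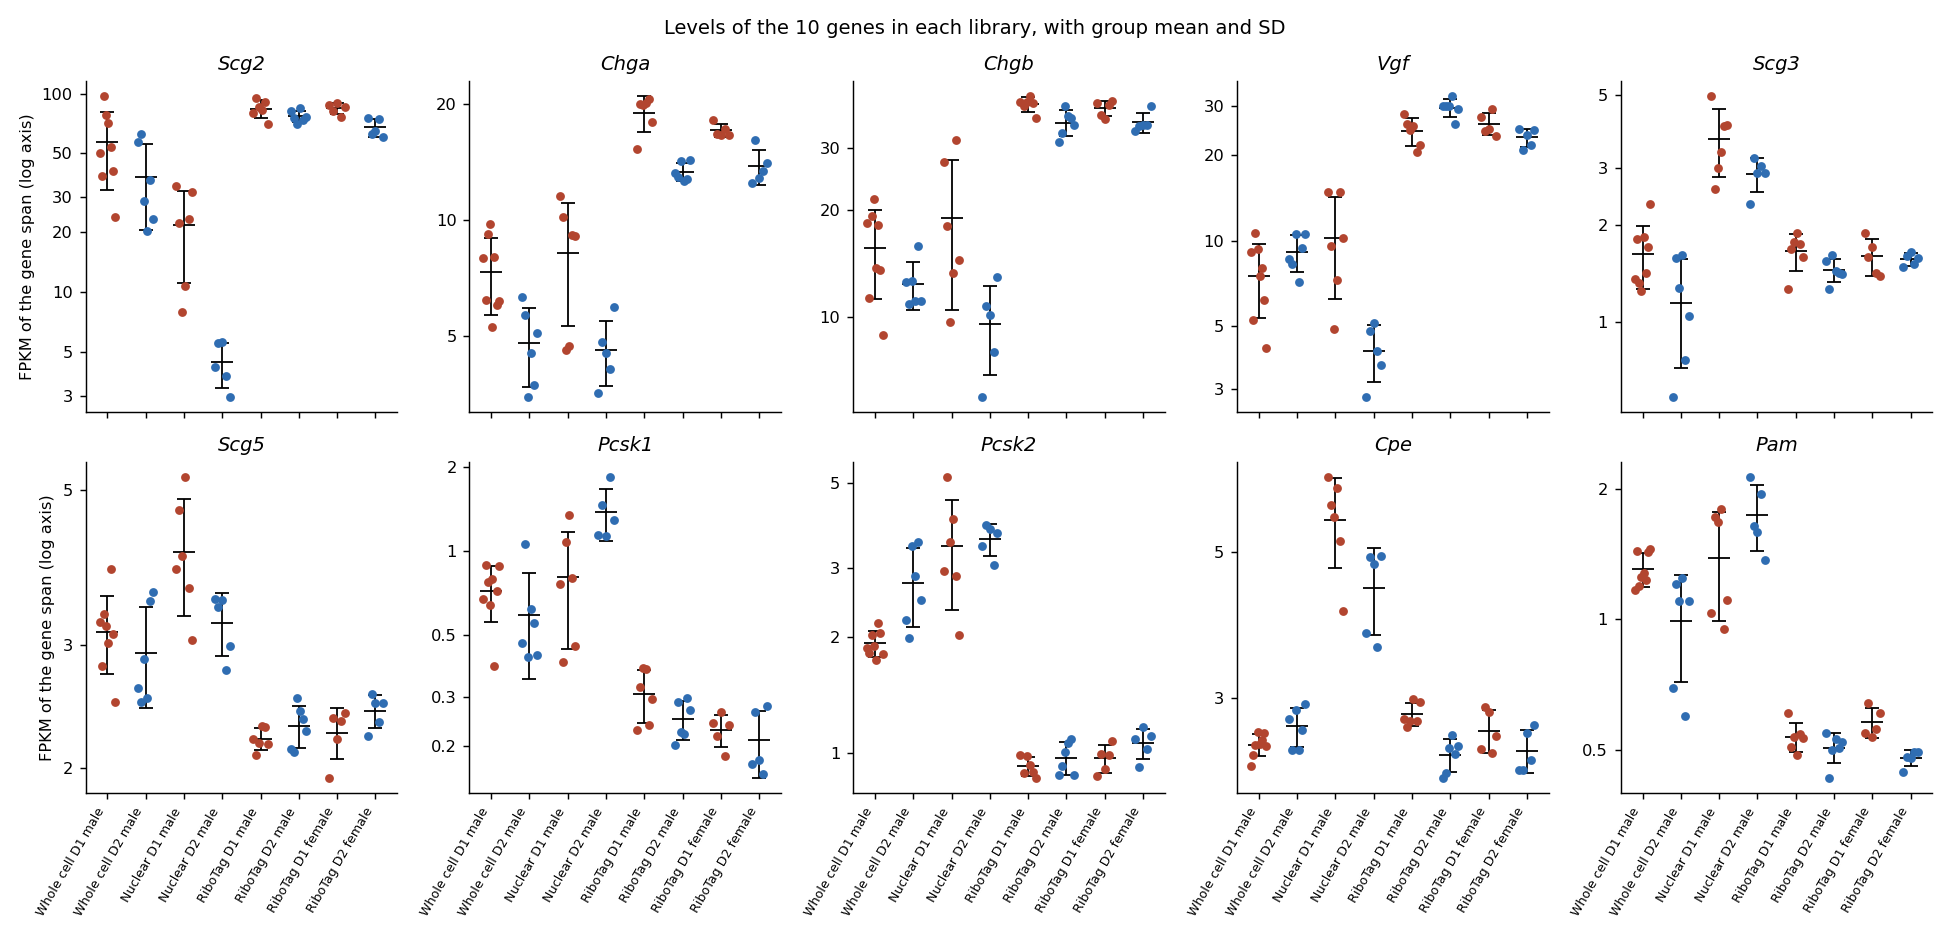
FPKM of the gene span on a log axis for each of the 10 genes (panels) in each of the 47 libraries (points; red D1, blue D2), by method, cell type and labelled sex; dashes and bars give the group mean ± SD. Scg2 runs from a mean of 4.43 in nuclear D2 to 84.3 in RiboTag D1 female libraries, whereas Cpe stays between 2.45 and 5.59.

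The first comparison asked which members differ between the cell types, method by method, with edgeR's quasi-likelihood test and p-values adjusted over all genes tested. Chga was called lower in D2 in nuclei and in both RiboTag datasets, and Scg2 and Chgb were called lower in 2 of these 3 datasets each. Vgf was called in both directions, lower in D2 in nuclei and higher in D2 in male RiboTag libraries. In bulk libraries like these, fewer cells of a type and less RNA per cell cannot be told apart. Pcsk1 and Pam did not pass the filter on low values in any dataset, so 8 of the 10 members entered these tests, and values for these 2 enzymes come from a fit in which they were kept beside the filtered genes. In nuclei 6 of the 8 members were called, all lower in D2, beside 16.7% of 9603 genes called and 10.6% called lower in D2. Without the FPKM filter, where the median of all genes moved from 0.04 to 0.26, 9 of the 10 members were called in nuclei, beside 26% of 31033 genes, with Scg2 at -3.66, Cpe at -1.61, Scg5 at -1.58, and also Scg3 at -1.68 and Pcsk2 at -1.18. Among whole cell libraries edgeR called 0 of the 8, beside 0.914% of 17171 genes; 3 had an unadjusted p under 0.05, and DESeq2 called 1, beside 4.02%. Of all whole cell calls 31.2% were higher in D2 with TMM scaling and 67.3% with DESeq2 size factors. Male RiboTag libraries gave 4 calls of 8, 3 lower and 1 higher in D2, beside 9.36% of 6819 genes (5.24% lower, 4.12% higher). Female RiboTag libraries gave 2 calls of 8, both lower in D2, beside 4.51% of 7095 genes (2.54% lower). Ranges of D1 and D2 libraries did not overlap for 1 of the 8 members in nuclei, 0 in whole cells and 2 each in male and female RiboTag libraries, beside 13.8%, 1.29%, 3.8% and 4.92% of genes. The median log2 fold change of the 8 members, D2 minus D1, was -0.74 in nuclei, -0.32 in whole cells, -0.17 in male and -0.15 in female RiboTag libraries, beside medians over all genes of 0.04, -0.09, 0.00119 and -0.000298.

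**Figure D2:**
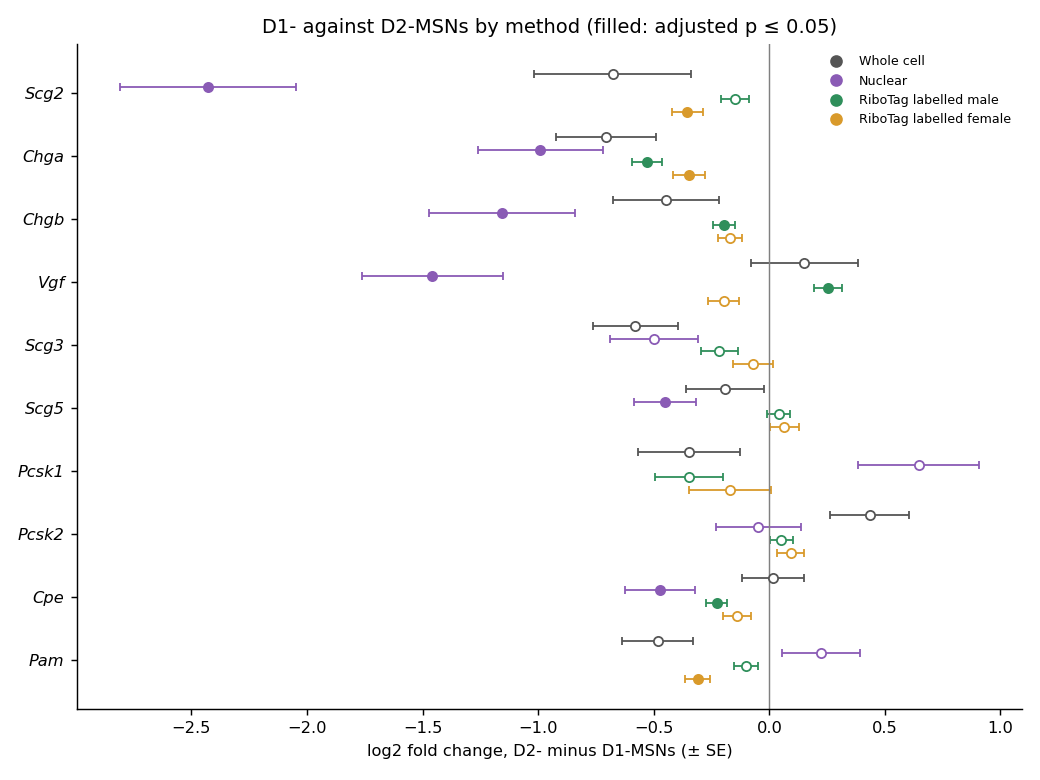
log2 fold change, D2- minus D1-MSNs (points, with SE bars), of each gene in the 4 datasets; filled points have an adjusted p of 0.05 or less by edgeR, with Pcsk1 and Pam kept in the fit. Scg2 in nuclei lies farthest from 0, at -2.43, while the RiboTag values lie between -0.53 and 0.26.

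Scg2, precursor of the peptide secretoneurin, showed the widest gap in nuclei. Nuclear D1 libraries ranged from 7.92 to 34.3 FPKM with a median of 23.0, and the 5 nuclear D2 libraries had 2.97, 3.79, 4.20, 5.56 and 5.61 FPKM. Every D2 library lay below every D1 library. Scg2 was 5.38-fold lower in D2 (log2 -2.43 ± 0.38 SE, adjusted p = 0.00934), and the call held when each of the 11 libraries was left out in turn (log2 -2.59 to -2.26). The D2 libraries held 23 to 569 Scg2 counts, of which a median of 23.1% could be background, beside 0.49% in D1; with background subtracted the change was -2.38 (adjusted p = 0.00816). In female RiboTag libraries Scg2 had 76.1, 82.0, 85.9, 87.8 and 89.9 FPKM in D1 and 60.7, 62.9, 65.1, 75.0 and 75.4 FPKM in D2. Here too the groups were separate, at a smaller distance (log2 -0.35 ± 0.07, adjusted p = 0.00205). Male RiboTag libraries, at 70.1 to 94.7 FPKM (median 84.3) in D1 and 70.5 to 84.4 FPKM (median 75.8) in D2, overlapped (log2 -0.15 ± 0.06, adjusted p = 0.145). Whole cell libraries overlapped widely, from 24.0 to 97.4 FPKM (median 51.9) in D1 and from 20.4 to 62.6 FPKM (median 32.9) in D2 (log2 -0.68 ± 0.34, adjusted p = 0.382).

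Chga, which encodes the chromogranin most used as a marker of dense core granules, was the member called in most datasets. Male RiboTag libraries had 15.3 to 20.6 FPKM (median 19.9) in D1 and 12.7 to 14.3 FPKM (median 13.1) in D2. No D2 library reached the lowest D1 library (log2 -0.53 ± 0.07, adjusted p = 4.0e-06), and without the libraries that contradict their sex label the change was -0.62 (adjusted p = 8.17e-05). Female RiboTag libraries had 16.6, 16.6, 16.7, 17.2 and 18.2 FPKM in D1 and 12.5, 12.8, 13.4, 14.0 and 16.1 FPKM in D2. These were again separate (log2 -0.35 ± 0.07, adjusted p = 0.00434). Nuclear libraries, at 4.60 to 11.5 FPKM (median 9.13) in D1 and 3.57, 4.13, 4.54, 4.85 and 5.95 FPKM in D2, overlapped through 2 D1 libraries at 4.60 and 4.71 (log2 -0.99 ± 0.27, adjusted p = 0.0263). The nuclear call was lost on leaving out D2 library 1, 2, 3 or 5 (adjusted p up to 0.0826) or the 3 D1 libraries in which 10 genes held most of the counts (-0.67, adjusted p = 0.127). In whole cells Chga had 5.28 to 9.78 FPKM (median 7.10) in D1 and 3.49 to 6.33 FPKM (median 4.83) in D2, which did not pass the test (log2 -0.71 ± 0.22, adjusted p = 0.109).

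Chgb, the other chromogranin, had small differences in RiboTag. Male RiboTag libraries held 36.5 to 42.0 FPKM (median 40.2) in D1 and 31.1 to 39.5 FPKM (median 35.6) in D2, with overlap (log2 -0.19 ± 0.05, adjusted p = 0.00883). Without the 6 libraries that contradict their sex label the value was -0.16 and the adjusted p 0.335. Female RiboTag libraries had 36.1, 37.2, 39.7, 40.1 and 40.6 FPKM in D1 and 33.5, 34.5, 34.7, 34.8 and 39.4 FPKM in D2, 1 D2 library standing among the D1 values (log2 -0.17 ± 0.05, adjusted p = 0.0726). In nuclei Chgb ranged from 9.69 to 31.6 FPKM (median 16.3) in D1 and had 5.97, 7.98, 10.1, 10.8 and 13.0 FPKM in D2. It was called lower in D2 (log2 -1.15 ± 0.32, adjusted p = 0.0269), a call lost without D1 library 5 or D2 library 1, 3 or 5 (adjusted p up to 0.0847) or the same 3 D1 libraries (-0.69, adjusted p = 0.105). Whole cell values were 8.91 to 21.5 FPKM (median 16.0) in D1 and 10.9 to 15.9 FPKM (median 11.8) in D2, the D2 libraries lying within the D1 range (log2 -0.45 ± 0.23, adjusted p = 0.403).

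Vgf, whose product is cut into several neuropeptides, moved in opposite directions. Nuclear libraries ranged from 4.88 to 14.9 FPKM (median 9.88) in D1 and had 2.82, 3.64, 4.09, 4.81 and 5.15 FPKM in D2. Only the lowest D1 library fell within the D2 range (log2 -1.46 ± 0.30, adjusted p = 0.0101), and the call held when each library was left out. Without the 3 nuclear D1 libraries whose 10 highest genes hold over 60% of the counts the value was -0.95 (adjusted p = 0.0545); Scg2 (-1.74), Scg5 (-0.68) and Cpe (-0.59) kept their calls there (adjusted p = 0.0406, 0.0406 and 0.0458). In male RiboTag libraries Vgf was higher in D2, at 25.9 to 32.4 FPKM (median 29.8) beside 20.5 to 27.9 FPKM (median 25.0) in D1. The lowest D2 library lay within the D1 range (log2 0.26 ± 0.06, adjusted p = 0.00553), and without the libraries that contradict their sex label the change was 0.40 (adjusted p = 0.00679). Female RiboTag libraries had 23.4, 24.5, 24.9, 27.4 and 29.1 FPKM in D1 and 21.0, 21.8, 23.6, 24.6 and 24.9 FPKM in D2, which overlapped and did not pass the test (log2 -0.20 ± 0.07, adjusted p = 0.112). Whole cell libraries had 4.19 to 10.7 FPKM (median 7.75) in D1 and 7.15 to 10.6 FPKM (median 9.04) in D2, all D2 values within the D1 range (log2 0.15 ± 0.23, adjusted p = 0.887).

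Scg3 and Scg5, partners of the granins and of PC2, differed less. Scg5 in nuclei had 3.05 to 5.22 FPKM (median 3.94) in D1 and 2.77, 2.99, 3.41, 3.49 and 3.50 FPKM in D2. The groups overlapped, with a call (log2 -0.45 ± 0.13, adjusted p = 0.0348) that was lost on leaving out any of the 5 D2 libraries or D1 library 2 or 4 (adjusted p up to 0.134). Its D2 minus D1 differences elsewhere, -0.19 ± 0.17 in whole cells, 0.04 ± 0.05 in male and 0.07 ± 0.06 in female RiboTag libraries, did not pass the test. Scg3 had 2.58 to 4.98 FPKM (median 3.70) in nuclear D1 and 2.32, 2.88, 2.88, 3.04 and 3.21 FPKM in nuclear D2 and was not called (log2 -0.50 ± 0.19, adjusted p = 0.0856). Nor was it in whole cells (log2 -0.58 ± 0.18, adjusted p = 0.120) or in male (-0.21 ± 0.08) and female (-0.07 ± 0.09) RiboTag libraries.

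Of the processing enzymes, Cpe, which removes the basic residues left by the convertases, was called lower in D2 in nuclei and in male RiboTag libraries. Male RiboTag libraries had 2.71 to 2.99 FPKM (median 2.78) in D1 and 2.27 to 2.64 FPKM (median 2.49) in D2. The ranges were separate, although the difference was small (log2 -0.23 ± 0.05, adjusted p = 0.00150, and -0.29 with adjusted p = 0.0273 without the libraries that contradict their sex label). In nuclei Cpe had 4.07 to 6.49 FPKM (median 5.77) in D1 and 3.58, 3.77, 4.79, 4.91 and 4.92 FPKM in D2. That call, with overlapping ranges (log2 -0.47 ± 0.15, adjusted p = 0.0455), was the least firm, since it was lost without any of the 5 D2 libraries or D1 library 1, 2, 4 or 5 and with background subtracted (adjusted p = 0.0752). Cpe differed by -0.14 ± 0.06 in female RiboTag libraries (adjusted p = 0.251) and by 0.02 ± 0.13 in whole cells (adjusted p = 0.986).

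Pam was lower in D2 in female RiboTag libraries when kept in the fit. D1 libraries had 0.536, 0.546, 0.559, 0.606 and 0.642 FPKM and D2 libraries 0.444, 0.478, 0.481, 0.494 and 0.495 FPKM. All D1 values lay above all D2 values (log2 -0.31 ± 0.05, adjusted p = 0.00121 over 7097 genes). Male RiboTag libraries, at 0.486 to 0.607 FPKM (median 0.534) in D1 and 0.430 to 0.545 FPKM (median 0.513) in D2, overlapped (log2 -0.10 ± 0.05, adjusted p = 0.282). Pcsk2 had 1.74 to 2.17 FPKM (median 1.88) in whole cell D1 and 1.98 to 3.52 FPKM (median 2.68) in whole cell D2. It did not pass the test by edgeR (log2 0.43 ± 0.17, adjusted p = 0.228) and did by DESeq2 (0.58, adjusted p = 0.00339). The whole cell D1 and D2 libraries were listed on different lanes, so lane and cell type cannot be told apart there. The names of the count columns do not state these lanes, and give a lane only for a further column of D2 library 3. In the other datasets Pcsk2 differed by -0.05 to 0.09 on the log2 scale and was not called. Pcsk1, counted 38 to 1225 times a library, was not called in any of the 4 datasets. In nuclei it had a D2 minus D1 difference of 0.65 ± 0.26 (adjusted p = 0.103), which became -0.09 once the background, a median of 59.5% of its nuclear D2 counts, was subtracted.

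Summed levels of several marker lists, of other cells and of MSNs themselves, also differed between D1 and D2 libraries. The summed level of 4 cortical glutamatergic markers was 11.2 to 25.9 FPKM in RiboTag D1 male and 0.50 to 7.84 FPKM in D2 male libraries, and 7.78 to 22.8 FPKM beside 0.97 to 4.42 FPKM in female libraries. The 6 interneuron markers summed to 38.3 to 54.8 FPKM in RiboTag D1 male and 16.0 to 35.2 FPKM in D2 male libraries, and in nuclei to 15.9 to 52.2 FPKM in D1 and 14.6 to 19.5 FPKM in D2. Each of these neuronal markers had counts in every group. The 4 endothelial markers summed to 0.193 to 1.83 FPKM in RiboTag D1 male beside 0.0196 to 0.213 FPKM in D2 male libraries, and to 0.314 to 3.80 beside 0.0278 to 0.243 FPKM in female ones, where 1 of the 4 was at 0 in D2. The 6 shared MSN markers were higher in RiboTag D2, at 274 to 342 FPKM beside 203 to 234 FPKM in male and 308 to 360 FPKM beside 216 to 244 FPKM in female libraries. Oligodendrocyte markers overlapped between RiboTag D1 male (4.39 to 8.12 FPKM) and D2 male libraries (5.48 to 10.8 FPKM). Astrocyte markers did so too, at 0.314 to 0.660 FPKM and 0.360 to 0.637 FPKM. In nuclei the endothelial markers summed to 0.354 to 5.15 FPKM (median 1.58) in D1 and 4.39 to 9.85 FPKM (median 6.62) in D2, and the 5 microglia markers to 2.51 to 9.72 FPKM (median 5.98) and 8.42 to 12.1 FPKM (median 9.33). Background, which was higher in nuclear D2 libraries, was not subtracted from these sums, so they do not show cells apart from it. The part of these cells in the lower Chga, Scg2, Cpe and Pam of D2 libraries was not tested. The part of the 32.4 to 52.1% background and of the lower MSN, higher endothelial and higher microglia markers of nuclear D2 libraries in the nuclear differences was not tested beyond the subtraction above. In the nuclear fit with sequencing lane as a covariate the 6 calls held, at log2 -2.38 for Scg2, -1.47 for Vgf, -1.22 for Chgb, -1.01 for Chga, -0.50 for Cpe and -0.46 for Scg5.

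The second comparison asked how the members differed between methods within a cell type, in 1 fit over the 37 male libraries. Chga, Chgb, Vgf and Scg2 were higher in RiboTag than in whole cell libraries in both cell types, and Pcsk2 and Scg5 were lower. In nuclei Scg3, Cpe and Pcsk2 were higher than in whole cells in both cell types, and Scg2 was lower. Between RiboTag and whole cells 7 of the 8 members tested were called in D1, 5 higher and 2 lower, beside 63.2% of 8041 genes called (19.6% higher, 43.6% lower). In D2 6 of the 8 were called, 4 higher and 2 lower, beside 65.6% (24.7% higher, 40.8% lower). Between nuclei and whole cells 6 of the 8 were called in D1, 5 higher and 1 lower, beside 47.3% (23% higher, 24.3% lower), and 5 of the 8 in D2, 3 higher and 2 lower, beside 35.1% (16.9% higher, 18.2% lower). With 35.1 to 65.6% of all genes called between methods, the number of members called says little by itself, and the direction and size of each are given below. Ranges did not overlap for 6 and 5 of the 8 members between RiboTag and whole cells (D1, D2), beside 45.9% and 31.6% of genes, and for 2 and 4 between nuclei and whole cells, beside 16.9% and 20.3%. Medians over the 8 members were 0.45 and 0.70 (RiboTag minus whole cell, D1 and D2) and 0.46 and 0.06 (nuclear minus whole cell), beside medians over all genes of -0.38, -0.22, -0.04 and 0.12. All method comparisons of a cell type share the whole cell libraries.

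**Figure D3:**
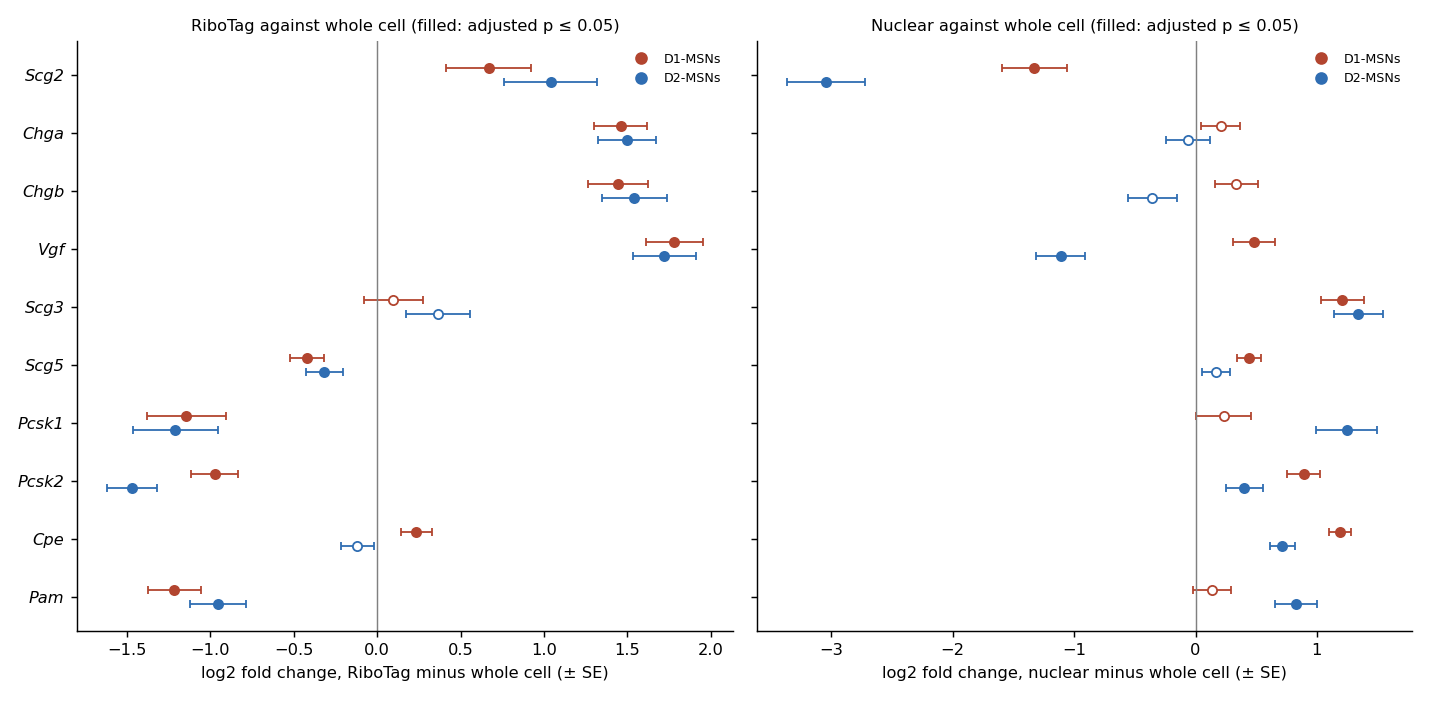
log2 fold change of each gene, RiboTag minus whole cell (left) and nuclear minus whole cell (right), in D1- (red) and D2-MSNs (blue) with SE bars; filled points have an adjusted p of 0.05 or less by edgeR, with Pcsk1 and Pam kept in the fit. Chga, Chgb and Vgf sit between 1.44 and 1.78 in RiboTag in both cell types, and Scg2 falls to -3.05 in nuclear D2.

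Vgf, Chga, Chgb and Scg2 were the members called higher in RiboTag in both cell types. Vgf, at 20.5 to 27.9 FPKM in RiboTag D1 beside 4.19 to 10.7 FPKM in whole cell D1, rose 3.44-fold (log2 1.78 ± 0.17, adjusted p = 3.88e-11), and 3.30-fold in D2 (25.9 to 32.4 beside 7.15 to 10.6 FPKM). Chga rose 2.75-fold in D1 and 2.83-fold in D2, and Chgb 2.72-fold and 2.91-fold. For these 3 genes no RiboTag library overlapped a whole cell library in either cell type. Without the libraries that contradict their sex label their differences in D1 and D2 lay between 1.57 (Chgb, D1) and 1.85 (Vgf, D2), all called. Scg2 was higher by 1.04 ± 0.28 in D2 (adjusted p = 0.00136, and 1.16 with adjusted p = 0.00559 without those libraries), with separate ranges, and by 0.67 ± 0.25 in D1 (adjusted p = 0.0215), with overlapping ones. The D1 value fell to 0.26 (adjusted p = 0.391) with background subtracted, and lost its call without nuclear D2 library 5 or the libraries that contradict their sex label (adjusted p = 0.105 and 0.123).

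Pcsk2 had the lowest RiboTag minus whole cell difference of the 8 members that passed the filter. RiboTag libraries had 0.863 to 0.987 FPKM (median 0.914) in D1 and 0.876 to 1.09 FPKM (median 0.966) in D2, below every whole cell library of the same cell type. The differences were -0.97 ± 0.14 and -1.47 ± 0.15; without the FPKM filter, where the median of all genes fell to -1.92, the D1 value turned to 0.32 and the D2 value moved to -0.18 with no call (adjusted p = 0.522). Without the libraries that contradict their sex label both calls held (-0.86 and -1.29). Scg5 was lower in D1 (log2 -0.42 ± 0.10, adjusted p = 0.000663) and in D2 (-0.32 ± 0.11, adjusted p = 0.0114) but turned to 0.84 and 0.97 without that filter; the calls were lost without the libraries that contradict their sex label (-0.22 and -0.16). Cpe was 0.23 ± 0.09 higher in RiboTag D1 (adjusted p = 0.0259), 0.08 with no call when background was subtracted or nuclear D2 library 5 left out, 0.44 and called without the contradicting libraries, and not called in D2 (-0.12 ± 0.10). Scg3 was called in neither cell type (0.10 ± 0.18 and 0.36 ± 0.19), and without the libraries that contradict their sex label it was called in D2 (0.55, adjusted p = 0.0300), as it was with background subtracted (0.72, adjusted p = 0.00108). Pam, kept in the fit, was lower in RiboTag in D1 (log2 -1.22 ± 0.16) and D2 (-0.95 ± 0.17), and both calls held with background subtracted (-1.07 and -0.51) and without the contradicting libraries (-1.32 and -0.94). Pcsk1 had differences of -1.14 and -1.21, called, which were -1.47 and -1.31 without those libraries and became -0.31 and -0.16 (adjusted p = 0.626 and 0.821) with background subtracted.

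In nuclei Scg2 was 2.51-fold lower than in whole cells in D1 (log2 -1.33 ± 0.27, adjusted p = 9.83e-05) and 8.25-fold lower in D2 (-3.04 ± 0.32, adjusted p = 1.78e-09). The D2 ranges, 2.97 to 5.61 FPKM in nuclei and 20.4 to 62.6 FPKM in whole cells, were far apart. Cpe was 2.28-fold higher in nuclear D1 and 1.64-fold higher in nuclear D2, the latter turning to a log2 of -0.28 without the FPKM filter. Scg3 was 2.31-fold and 2.54-fold higher, and for both genes the ranges were separate. The D2 value of Scg3 fell to a log2 of 0.47 without the filter and lost its call (adjusted p = 0.137). Pcsk2 was 1.85-fold higher in D1 and 1.32-fold higher in D2, with overlap; the D2 value turned to -0.60 without the filter and lost its call with background subtracted (0.43, adjusted p = 0.0865) and without nuclear D2 library 2 or 3 (adjusted p = 0.0813 and 0.0718). Vgf was higher in nuclear D1 (log2 0.48 ± 0.18, adjusted p = 0.0220; no call with background subtracted, at 0.21, or without nuclear D2 library 5, at 0.44) and lower in nuclear D2 (-1.11 ± 0.20, adjusted p = 3.02e-05). Scg5 was higher in D1 (0.44 ± 0.10; 0.25 and no call with background subtracted) and not called in D2 (0.17 ± 0.11). Chga (0.21 and -0.06) and Chgb (0.34 and -0.36) were not called in either cell type. Pam and Pcsk1, kept in the fit, were called higher in nuclear D2 (0.83 ± 0.17 and 1.25 ± 0.25) and not in D1; the Pcsk1 call was lost with background subtracted (adjusted p = 0.104).

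The members' differences between methods varied with how much of the gene is exon. The 4 members with the highest exon share, Scg2, Vgf, Chga and Chgb, had RiboTag minus whole cell differences of 0.67 to 1.78 in D1 and 1.04 to 1.72 in D2, and the other 6 had -1.22 to 0.23 and -1.47 to 0.36. Nuclear minus whole cell differences ran the other way, -1.33 to 0.48 and -3.05 to -0.06 for those 4, and 0.14 to 1.21 and 0.17 to 1.34 for the other 6. Pcsk1, next after these 4 by exon share, stood among the lowest in RiboTag in both cell types. Across the 10 members Pearson's r between exon share in percent and difference was 0.71 and 0.75 for RiboTag and -0.68 and -0.85 for nuclei (D1 and D2), as a description of 10 genes measured in the same libraries. Spearman's rho was 0.61, 0.70, -0.55 and -0.62. With background subtracted r was 0.71, 0.75, -0.74 and -0.84. The part of introns in these differences was not tested, since exon and intron counts are not separate in the table.

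**Figure D4:**
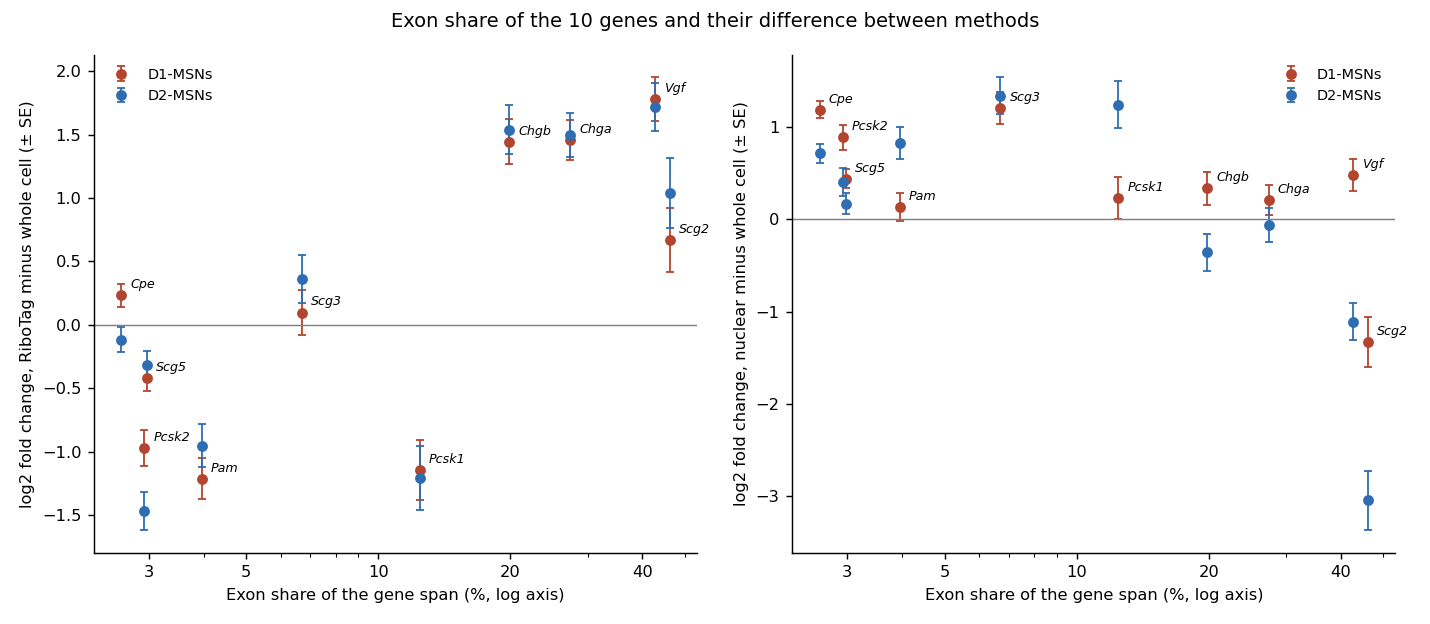
Exon share of the gene span (log axis, %) against the log2 fold change of RiboTag minus whole cell (left) and nuclear minus whole cell (right) for the 10 genes in D1- (red) and D2-MSNs (blue), with SE bars. The 4 genes above 19% exon share lie at 0.67 or higher on the left, and Scg2 lies lowest on the right.

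A test of the difference itself asked whether the D2 minus D1 difference changed with the method. Between nuclei and whole cells it was more negative in nuclei for Scg2 (log2 -1.72 ± 0.40, adjusted p = 0.00201), Vgf (-1.59 ± 0.27, adjusted p = 8.32e-05) and Cpe (-0.47 ± 0.14, adjusted p = 0.0137), 3 of 8 members beside 19.7% of 8041 genes (10.7% negative). Scg2 and Vgf kept their calls with background subtracted (-1.38 and -1.35), and Cpe lost it there (-0.24, adjusted p = 0.388) and without nuclear D2 library 5 (-0.36, adjusted p = 0.0803). Between RiboTag and nuclei Scg2 (2.09 ± 0.41, adjusted p = 0.000959) and Vgf (1.53 ± 0.27, adjusted p = 0.000387) differed, 2 of 8 members beside 9.48% (7.39% positive). Without the libraries that contradict their sex label the values were 2.37 and 1.93 and neither call held (adjusted p = 0.0668 and 0.0542). Between RiboTag and whole cells edgeR called 0 of 8, beside 0.771%; 2 members had an unadjusted p under 0.05, and DESeq2 called 1, Cpe (-0.46, adjusted p = 0.0254), beside 2.57%. The 3 tests share their libraries.

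The third comparison set RiboTag libraries labelled female beside those labelled male. Vgf in D2-MSNs was the member called. D2 female libraries had 21.0, 21.8, 23.6, 24.6 and 24.9 FPKM and D2 male libraries 25.9 to 32.4 FPKM with a median of 29.8. Every female library lay below every male one. Vgf was 1.33-fold lower in the female libraries (log2 -0.41 ± 0.07, adjusted p = 0.00691), and -0.39 (adjusted p = 0.00911) without the libraries that contradict their sex label. In D2 this was 1 of 8 members called, beside 0.0971% of 7209 genes called (0.0416% lower), and 1 of 8 with separate ranges, beside 1.28%. Of the 6 D1 libraries labelled male 4 contradict that label, so a lack of calls in D1 cannot show that the sexes are alike. In D1 edgeR called 0 of 8 members, beside 0% of the same genes, with 2 members at an unadjusted p under 0.05 and 0 of 8 called by DESeq2, and 0 of 8 had separate ranges, beside 0.499%. Vgf there had 20.5 to 27.9 FPKM (median 25.0) in male and 23.4 to 29.1 FPKM in female D1 libraries (log2 0.05 ± 0.07). The 2 D1 male libraries that match their label were those with the least Vgf, 20.5 and 21.9 FPKM. The difference between the female minus male effects of D2 and D1 was -0.45 ± 0.09 for Vgf and did not pass edgeR's test (adjusted p = 0.128), passed DESeq2's (adjusted p = 0.00582; 1 of 8 members beside 0.0416% of genes), and was -0.60 (adjusted p = 0.0579) without the libraries that contradict their label. edgeR called 0 of 8 members in that test, beside 0% of genes, with 2 at an unadjusted p under 0.05. Scg2 in D2 had 60.7 to 75.4 FPKM in female and 70.5 to 84.4 FPKM in male libraries and was not called (-0.24 ± 0.07, adjusted p = 0.220). The labels used here name no batch for RiboTag libraries, so whether male and female libraries were prepared apart is not known from them.

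**Figure D5:**
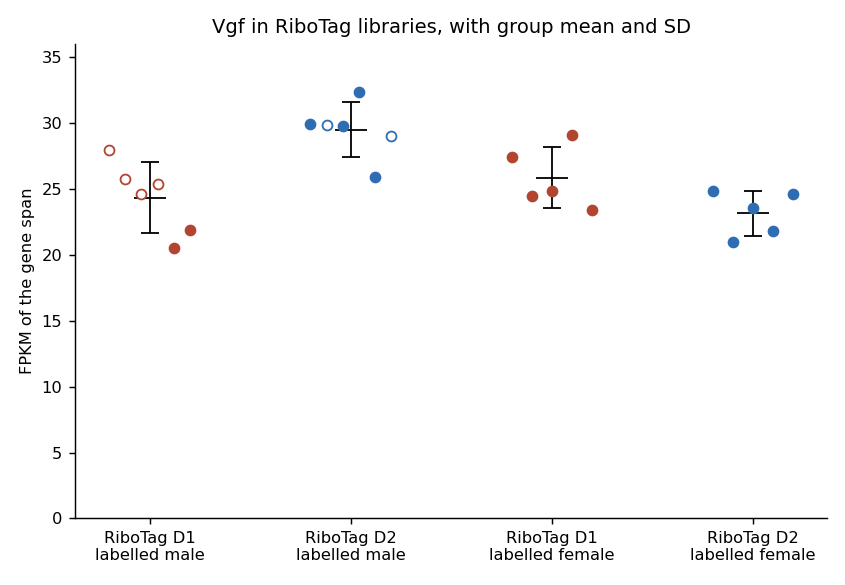
FPKM of Vgf in each RiboTag library (points; red D1, blue D2; open points mark libraries whose Xist and Y-linked counts contradict the male label), with group mean ± SD. D2 male libraries sit between 25.9 and 32.4, above the D2 female libraries at 21.0 to 24.9.

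Genes of the same pathway were tested by edgeR in the same fits, and their counts stand beside 16.7% of all genes called between cell types in nuclei, 0.914% in whole cells, 9.36% in male and 4.51% in female RiboTag libraries. Of 16 other processing enzymes and inhibitors, 4 were tested in nuclei and 1 was called, Pcsk1n (proSAAS, an inhibitor of PC1/3; log2 -2.46, D2 minus D1, adjusted p = 0.00934). In male RiboTag libraries 2 of 8 were called, both lower in D2, Ctsl (-0.53), a cysteine protease, and Cpd (-0.18), a carboxypeptidase of the trans-Golgi network; in female libraries it was 1 of 8, Cpd (-0.22). Without the libraries that contradict their sex label Ctsl kept its call (-0.64) and Cpd did not (-0.18, adjusted p = 0.345). In whole cells edgeR called 0 of 8, with 2 at an unadjusted p under 0.05, and DESeq2 called 0. Between methods Pcsk1n was higher in RiboTag than in whole cells in D1 (2.13) and D2 (2.01) and lower in nuclear D2 (-1.80), as Scg2 was, while Ece2, an endothelin-converting enzyme, was lower in RiboTag (-1.36 and -1.32). Both kept their calls without the contradicting libraries. Of 15 genes of dense core vesicle machinery, 2 of 10 were called between cell types in nuclei, Hid1 higher (0.69) and Atp6ap1 lower (-0.81) in D2. Male RiboTag libraries gave 2 of 10, Syt7 (-0.44), a calcium sensor of exocytosis, and Hid1 (-0.31), and female ones 1 of 10, Syt7 (-0.41); without the contradicting libraries Syt7 kept its call (-0.39) and Hid1 did not (-0.39, adjusted p = 0.115). In whole cells edgeR called 0 of 11 of them, with 5 at an unadjusted p under 0.05, and DESeq2 called 1. Of the 8 tested between RiboTag and whole cells, 4 were higher and 2 lower in RiboTag D1 and 3 were higher and 0 lower in D2, beside 63.2% and 65.6% of all genes called; Ptprn, a granule membrane protein, was higher in both (1.55 and 1.01), also without those libraries (1.72 and 1.15). Between nuclei and whole cells 2 were higher and 5 lower in D1, and 1 higher and 3 lower in D2, beside 47.3% and 35.1%, among them Syt7, higher in both (1.42 and 1.39). Differences were larger for the peptide cargo, 17 neuropeptide precursors, of which 3 of 11 were called in whole cells and 6 of 8 in each RiboTag dataset. Npy and Sst of this list are also among the 6 interneuron markers above, so it is not a list of MSN peptides alone. In each RiboTag dataset 2 interneuron markers were tested, and both were called lower in D2. Penk was higher in D2 in whole cells (3.22), male RiboTag (2.31) and female RiboTag libraries (2.61), while Pdyn (-3.66, -2.61 and -2.96) and Tac1 (-3.88, -1.33 and -1.30) were lower. Without the contradicting libraries the male RiboTag values were 2.56, -2.48 and -1.35, all called. In nuclei Penk was lower in D2 (-2.44), with Sst (-1.93), and Gal higher (3.06), 3 of 8 tested.

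By Pearson's r of mean log2 FPKM over the 8 groups of method, cell type and labelled sex, the protein-coding genes most like Scg2 were Sqstm1 (r = 0.997) and Eif4g2 (0.997), and those most like Chga were Tubb4b (0.994) and Tuba1a (0.992). Chgb was most like Slc22a17 (0.996) and Ywhaz (0.995), and Vgf most like Cbx6 (0.995) and Nlgn3 (0.993). For Scg3 they were Gpr162 (0.995) and Prr18 (0.976), for Scg5 Iqcg (0.988) and Ube3a (0.988), and for Cpe Fam107a (0.985) and Ptn (0.982). Pcsk2 was most like Sgip1 and Cacnb4 (0.999 each), Pam most like Rnf25 (0.992) and Angptl7 (0.991), and Pcsk1 most like Tmem125 and Gm17087 (0.986 each). With 8 points dominated by the 3 methods, no member was the nearest gene of another. Pcsk1 and Pam, which did not pass the filter on low values, were not among the candidates.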

How the data were processed

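RNA-seq libraries of D1- and D2-MSNs were analysed from the raw counts per gene that the authors deposited in 1 table. Per the study's methods and the submitters' notes, reads (SMARTer stranded kit, ribosomal RNA depleted) were aligned to GRCm38 with HISAT2 2.0.5 and counted with featureCounts (version not given in the sources used here) over whole gene bodies, unstranded, with reads over several genes counted for each and multimapping reads left out. Introns are therefore part of every count. A repeat column of whole cell D1 library 1 and 2 lane columns of whole cell D2 library 3 were summed with their libraries, giving 47 libraries from 49 columns; 10 columns could be matched to their group only, and no column was left unused. The titles and the design text give different numbers of whole cell libraries, and the column names were followed. Library numbers are those of the column names.

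Counts were tested with edgeR 4.0.16 (R 4.3.3; TMM normalization, quasi-likelihood F test, Benjamini-Hochberg adjustment over all genes tested, call at an adjusted p of 0.05 or less), with cell type as the factor within each method, and with group contrasts in 1 fit over all male libraries and in 1 fit over all RiboTag libraries. Genes were kept at more than 1 FPM (fragments scaled to library size) in at least 2 libraries and, after the study's methods, at an FPKM of at least 1 in 1 library and at most 50000 in all, or of at least 0.1 in 2 libraries for RiboTag alone. An SE was obtained by dividing the size of a log2 fold change by the root of its F statistic. Levels (FPKM of the gene span) use TMM factors over the 47 libraries and the 8041 genes of the male fit. Background is the count per kilobase over 1386 receptor genes multiplied by a gene's span. DESeq2 1.42.0 and other settings served as alternatives. On simulated counts with 200 genes changed by 1.5 on the log2 scale, the nuclear comparison recovered 52.5% over 9603 genes, the whole cell comparison 43.5% over 17171 and each RiboTag comparison of cell types 100% over 6819 (male) and 7095 (female). Members tested in RiboTag differed between cell types by only -0.53 to 0.26 (male) and -0.35 to 0.09 (female). The recovery at 1.5 does not apply to differences of that size. p-values measure the spread between mice within a group.

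The members and gene lists were chosen with earlier results of these data known. Named genes are all members, Drd1, Drd2 and sex-linked genes as label checks, up to 3 genes of smallest adjusted p per list and comparison, and per member the 2 protein-coding genes most alike over the 8 groups. Penk in the paragraph on labels belongs to the fixed marker list, and Npy and Sst are named where 2 fixed lists share them.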

Additional observations from a re-analysis of the deposited data

Results flagged for a closer look

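Of 80 sets of libraries (10 genes in 8 groups), 3 held a library far from the others, where chance gives about 1 in 20. Chgb in RiboTag D2 female library 6 stood at 39.4 FPKM, beside 34.8 in the next, and Chgb in whole cell D2 library 5 at 15.9 FPKM beside 12.7. Pcsk1 in whole cell D2 library 2 stood at 1.06 FPKM beside 0.619. The D2 minus D1 difference changed with the method in 5 tests: nuclear minus whole cell for Scg2 (log2 -1.72), Vgf (-1.59) and Cpe (-0.47), and RiboTag minus nuclear for Scg2 (2.09) and Vgf (1.53). The latter 2 were not called without the libraries that contradict their sex label (2.37 and 1.93).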

How the results depend on the processing

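Over the called values of single members, 613 of 698 alternative settings kept direction and call, 80 kept the direction without the call and 5 reversed. All 5 reversals came without the FPKM filter, where low genes set the scale and the median of all genes in RiboTag minus whole cell moved from -0.38 to -1.92 in D1 and from -0.22 to -1.93 in D2 (-1.04 and -0.75 with background subtracted): Scg5 in RiboTag minus whole cell became 0.84 (D1) and 0.97 (D2), Pcsk2 0.32 in D1, and in nuclear minus whole cell of D2 Pcsk2 became -0.60 and Cpe -0.28. Without that filter the members called were 3 in nuclear minus whole cell of D1, and 8 and 9 in the tests of the cell type difference for nuclear minus whole cell and RiboTag minus nuclear. DESeq2 called 1 member in whole cells, 1 for RiboTag minus whole cell, 6 for nuclear minus whole cell and 1 for female minus male; DESeq2 size factors gave 5 for nuclear minus whole cell, as did keeping Pcsk1 and Pam. Asking also for an absolute log2 fold change above 0.38 left 1 call in male and 0 in female RiboTag libraries. Without the 3 nuclear D1 libraries led by few genes, 3 of the 6 nuclear calls were left (Scg2, Scg5 and Cpe). Without the libraries that contradict their sex label, 0 members were called by edgeR for RiboTag minus nuclear (Scg2 and Vgf at adjusted p = 0.0668 and 0.0542). With DESeq2 size factors the share of positive calls over all genes went from 48.6% to 58.6% for nuclear minus whole cell of D1 and, for the cell type difference, from 45.5% to 33.4% (nuclear minus whole cell) and from 79.0% to 50.6% (RiboTag minus whole cell).

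Leaving out each library in turn gave 2 to 6 members called in nuclei (2 without D2 library 1, 3 or 5 and 3 without library 2), 4 to 5 in male and 2 to 3 in female RiboTag libraries, 0 in whole cells, 5 to 7 and 6 for RiboTag minus whole cell (D1, D2), 5 to 6 and 4 to 5 for nuclear minus whole cell, 2 to 4 and 2 to 3 for the 2 tests of cell type differences with calls, and 1 for female minus male in D2. For comparisons between methods only the 5 nuclear D2 libraries were left out this way, and for female minus male only the female ones. Nuclear D2 libraries are not among those compared in RiboTag minus whole cell, though they share its fit. These settings count among those tallied above.

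Same-numbered libraries did not deviate together (correlations from -0.29 to 0.22). Each library came from 1 mouse, so the numbers pair no mice. Whether same-numbered libraries shared a preparation is not known from these correlations. With the replicate number as a block over the numbered libraries alone, 0 members were called in nuclei, in female RiboTag libraries, for nuclear minus whole cell and RiboTag minus nuclear cell type differences and for female minus male in D2; that fit used fewer libraries. By span Scg2 was the highest member in 7 of 8 groups and per exon length in 1. Depth limits Scg2 in nuclear D2 and Pcsk1 throughout, where counts were lowest.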
